A study of Mus musculus with 16 samples.

Results

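The fatty-acid-binding proteins (Fabp) are a family of small intracellular lipid carriers, and 8 Fabp genes, Fabp1 to Fabp7 and Fabp9, were measured in sorted cells of the mouse thymus. They were found by gene symbol, as every probe set whose annotated gene is one of these 8, among 8251 genes with a probe set of a single gene. The family was chosen by its signals over all groups of the series, so every level and every difference of a Fabp gene given here is a description and carries no p-value. The 8 genes had 11 probe sets, since Fabp1, Fabp6 and Fabp9 had 2 each.

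RNA was hybridised to 16 arrays of 1 colour, 2 in each of 8 groups. Medullary thymic epithelial cells (mTEC) of Aire-knockout (KO) mice and of wild-type (WT) mice were each sorted for high (CD80hi) or low (CD80lo) CD80. The groups were KO CD80hi, WT CD80hi, KO CD80lo and WT CD80lo mTEC, and, from wild-type mice only, mTEC not split by CD80, cortical thymic epithelial cells (cTEC), thymic macrophages and thymic dendritic cells. CD80 is a costimulatory surface protein that rises as mTEC mature, and Aire is a nuclear protein that mature mTEC need to transcribe many genes of other tissues. The labels give no strain, age, sex or pooling, no details of the Aire allele, and do not say whether the 2 arrays of a group came from separate animals, so the spread between arrays may be technical. All values are signals in array units or differences of log2(signal + 4.8), which understate the change of dim genes, with the standard error (SE) of a limma fit over all 16 arrays. A probe set was called where its adjusted p in that fit lay under 0.05.

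Fatty acids are hardly soluble in water, and Fabp proteins hold a fatty acid or another lipid inside a barrel closed by a helical lid and carry it between membranes, enzymes and the nucleus. There some of them hand ligands to the peroxisome proliferator-activated receptors (PPAR), which switch on genes of lipid use. Most family members are known for 1 tissue each. Fabp1 is the carrier of liver and small intestine, Fabp2 of the enterocyte, and Fabp6 carries bile acids in the ileum. Fabp9 is known from spermatids, Fabp7 from glial precursors of the brain, and Fabp3 from heart and skeletal muscle. Fabp4 is the carrier of fat cells and macrophages, and Fabp5 that of the epidermis. In the thymus, medullary epithelium is known for transcribing genes of such tissues, which lets developing T cells meet their products.

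The checks of the arrays showed the following. Aire gave 1589 and 1385 on the KO CD80hi arrays against 1829 and 1704 on the WT CD80hi arrays, and where its probes lie relative to the deletion is not given in the sources used here, so this checks nothing. Among 8 mTEC markers, 6 exceeded 17.3 on both arrays in KO and in WT CD80hi mTEC, while the keratins Krt5 and Krt14, which define many mTEC, did not. The array numbered 1 of both knockout groups had a higher 18S ribosomal control signal than its partner, 562 against 48.2 in KO CD80hi and 1893 against 286.6 in KO CD80lo. The Fabp results are therefore also given without these 2 arrays where a call changes.

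Fabp1 and Fabp2, the carriers of the enterocyte, were bright in WT CD80hi and unfractionated mTEC and far dimmer in the other groups. Their promoters are shown because these are the genes with the lowest knockout signals relative to wild type among those with a promoter in the table, and that of Fabp7 because its signals in CD80hi mTEC overlapped between the genotypes. The sequences are those of RefSeq on GRCm38.p6, 250 bases before and 50 after the start of the gene, on the plus strand, at chr6:71199629-71199928 for Fabp1, chr3:122894822-122895121 for Fabp2 and chr10:57784673-57784972 for Fabp7. Capitals mark TATAAA, the TATA box, and AGGTCA, the half-site of PPAR and other nuclear receptors, on either strand.
Fabp1: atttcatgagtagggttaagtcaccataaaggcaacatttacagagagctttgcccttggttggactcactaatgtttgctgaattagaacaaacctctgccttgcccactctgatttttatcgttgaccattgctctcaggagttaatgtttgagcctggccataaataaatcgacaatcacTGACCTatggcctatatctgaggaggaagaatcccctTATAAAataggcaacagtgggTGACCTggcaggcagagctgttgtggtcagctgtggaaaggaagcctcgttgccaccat
Fabp2: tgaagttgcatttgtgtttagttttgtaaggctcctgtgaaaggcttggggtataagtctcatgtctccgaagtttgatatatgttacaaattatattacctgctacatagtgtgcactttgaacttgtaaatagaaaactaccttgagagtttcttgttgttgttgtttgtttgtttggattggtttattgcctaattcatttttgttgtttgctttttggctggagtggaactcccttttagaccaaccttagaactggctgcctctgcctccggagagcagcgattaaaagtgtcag
Fabp7: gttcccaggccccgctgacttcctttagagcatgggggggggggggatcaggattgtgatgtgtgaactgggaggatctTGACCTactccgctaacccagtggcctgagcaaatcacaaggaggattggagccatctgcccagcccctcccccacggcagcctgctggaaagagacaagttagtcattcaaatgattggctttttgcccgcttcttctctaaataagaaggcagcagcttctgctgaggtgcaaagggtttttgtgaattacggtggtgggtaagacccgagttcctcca
The table held 5 of the 8 genes, Fabp1, Fabp2, Fabp3, Fabp6 and Fabp7. Fabp1 has TATAAA 30 bases before the start and TGACCT, the half-site on the other strand, 67 and 9 bases before it. Fabp2 has neither, and Fabp7 has TGACCT 171 bases before the start. Of 32851 mouse promoters of this length, 13.6% hold the TATA box and 16.3% the half-site on either strand. CCAAT, the third motif searched, stands on the other strand as ATTGG 70 bases before the Fabp2 start and 126 and 56 bases before the Fabp7 start, and 37.4% of promoters hold it. Fabp6 has the TATA box 29 bases before its start. The promoters of Fabp1, Fabp2 and Fabp6 hold 3 CG dinucleotides each, that of Fabp7 holds 6 and that of Fabp3 holds 22, where the median promoter holds 7 and the quartiles are 3 and 20.

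Fabp1 (probe set 94075_at) gave 12.7 and 48.4 on the KO CD80hi arrays, against 206 and 141.5 on the WT CD80hi arrays. In CD80lo mTEC it gave 0.8 and 2.3 in KO and 1.4 and 5.5 in WT. Unfractionated mTEC gave 233 and 106, against 4.3 and 1.4 in cTEC, 3.3 and 8.2 in macrophages and 0.7 and 0.8 in dendritic cells. WT CD80hi and unfractionated mTEC overlapped at the top, and KO CD80hi mTEC stood below both. The remaining 5 groups did not exceed 8.2 on any array. KO CD80hi array 1, at 12.7, lay under 17.3 as they did, where signals set no order, and only array 2 lay above it. The mean in KO CD80hi mTEC was 17.6% of that in WT CD80hi mTEC, and between single arrays this share ran from 6.17% to 34.2%. The second Fabp1 probe set, 162342_at, lay between 0.4 and 8.4 on all arrays.

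Fabp2 (97889_at) gave 9.7 and 13.6 on the KO CD80hi arrays, against 136 and 167 on the WT CD80hi arrays. CD80lo mTEC gave 5.7 and 0.7 in KO and 6.9 and 0.9 in WT, so the genotypes overlapped there. In unfractionated mTEC it reached 140.3 and 124, while cTEC, macrophages and dendritic cells did not exceed 7.6. WT CD80hi and unfractionated mTEC overlapped and stood far above KO CD80hi mTEC, whose arrays, like those of the other 5 groups, lay under 17.3, where signals set no order. The KO CD80hi mean was 7.68% of the WT CD80hi mean, with 5.81% to 9.97% between single arrays, the lowest share among the 9 Fabp probe sets that passed the filter on low signals. In bulk RNA of a sorted population, fewer cells with the transcript and less transcript per cell cannot be told apart.

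Fabp9, the carrier of spermatids, was measured by 2 probe sets that followed each other, with a Pearson r of 0.96 over the 16 arrays, which share the groups. The suffix of 160729_f_at marks probes that also match similar sequences, and 94927_at has no such mark. On 160729_f_at, KO CD80hi mTEC gave 199 and 554, against 2040.4 and 1701 in WT CD80hi mTEC. KO CD80lo mTEC gave 4.5 and 1.2 and WT CD80lo mTEC 13.2 and 10.1. Unfractionated mTEC gave 1527 and 834, against 6.9 and 26.7 in cTEC, 12.4 and 14.7 in macrophages and 2.6 and 7.8 in dendritic cells. The 3 brightest groups did not overlap with each other or with the rest.

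On 94927_at WT CD80hi, unfractionated and KO CD80hi mTEC again came in this order, at lower signals. KO CD80hi mTEC gave 14.9 and 53.2, against 112.5 and 132 in WT CD80hi mTEC, and unfractionated mTEC gave 108 and 83.0. No array of another group exceeded 5.4. The KO CD80hi mean was 20.1% of the WT CD80hi mean on 160729_f_at and 27.9% on 94927_at, so both probe sets placed Fabp9 lower in the knockout.

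Fabp6, the ileal bile acid carrier, had a narrower range. Its probe set 99977_at gave 26.1 and 16.7 in KO CD80hi mTEC, against 38.3 and 39 in WT CD80hi mTEC. KO CD80lo mTEC gave 7.5 and 13.8 and WT CD80lo mTEC 18.1 and 4.7. The 2 arrays of unfractionated mTEC gave 30.6 and 32.9, those of cTEC 14.8 and 18.5, those of macrophages 20.8 and 2.0 and those of dendritic cells 17.3 and 11.9. WT CD80hi mTEC stood above every other group without overlap, while KO CD80hi mTEC overlapped with cTEC. The KO CD80hi mean was 55.4% of the WT CD80hi mean. The other Fabp6 probe set, 160886_i_at, did not exceed 2.1.

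Fabp3, the muscle carrier, was close to the lower end of what the arrays measured, and it passed the filter, a signal above 17.3 on at least 2 arrays, only through WT CD80hi mTEC. It (94214_at) gave 3.5 and 5.3 in KO CD80hi mTEC, against 20.1 and 24.8 in WT CD80hi mTEC. In CD80lo mTEC it gave 10.6 and 12.5 in KO and 5.6 and 6.5 in WT, all under 17.3, where signals set no order. No array of any other group exceeded 13.6. Since WT CD80hi mTEC alone admitted it, the differences of that group from the others had to be positive. Its second highest signal, 20.1, was the nearest to the filter value among the probe sets that passed, and the second highest signal of the Fabp1 probe set 162342_at, 6.2, the nearest among those that did not.

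Fabp7, the glial carrier, was bright in mature mTEC of both genotypes. It (98967_at) gave 44.9 and 78.5 in KO CD80hi mTEC and 53.3 and 68.1 in WT CD80hi mTEC, and the 4 arrays overlapped. KO CD80lo mTEC gave 29.6 and 17.5, both above the 11.6 and 1.6 of WT CD80lo mTEC. Unfractionated mTEC gave 50.9 and 57.9, while cTEC, macrophages and dendritic cells stayed at or under 4.9. The KO CD80hi mean was 101.6% of the WT CD80hi mean, with 65.9% to 147% between single arrays.

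Fabp5, the epidermal carrier, was the only member above the filter value on all 16 arrays. It (160544_at) gave 1476 and 2308 in KO CD80hi mTEC and 2439 and 1955 in WT CD80hi mTEC, which overlapped. CD80lo mTEC gave 387 and 569.7 in KO and 548.5 and 747.5 in WT, again with overlap. Unfractionated mTEC gave 1054 and 2295 and cTEC 1101 and 2104, against 573 and 386 in macrophages and 199.7 and 170.0 in dendritic cells. Its signal thus split the groups into a bright set of CD80hi mTEC, unfractionated mTEC and cTEC, which overlapped with each other, a middle set of CD80lo mTEC and macrophages, and the dendritic cells, which lay below all others.

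Fabp4, the carrier of fat cells and macrophages, was brightest in wild-type mature mTEC rather than in macrophages. It (100567_at) gave 16.2 and 53.1 in KO CD80hi mTEC, against 80.6 and 69.0 in WT CD80hi mTEC, and 12 and 36.6 in KO CD80lo mTEC against 36.7 and 27.5 in WT CD80lo mTEC. Unfractionated mTEC gave 68.9 and 75, cTEC 18.8 and 21.4, macrophages 31.2 and 21.8 and dendritic cells 9.7 and 1.1. WT CD80hi and unfractionated mTEC overlapped and stood above the rest, the next 5 groups in the order overlapped with their neighbours, and dendritic cells came last without overlap. In both knockout groups the array numbered 1 was the lower of the pair.

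**Figure D1:**
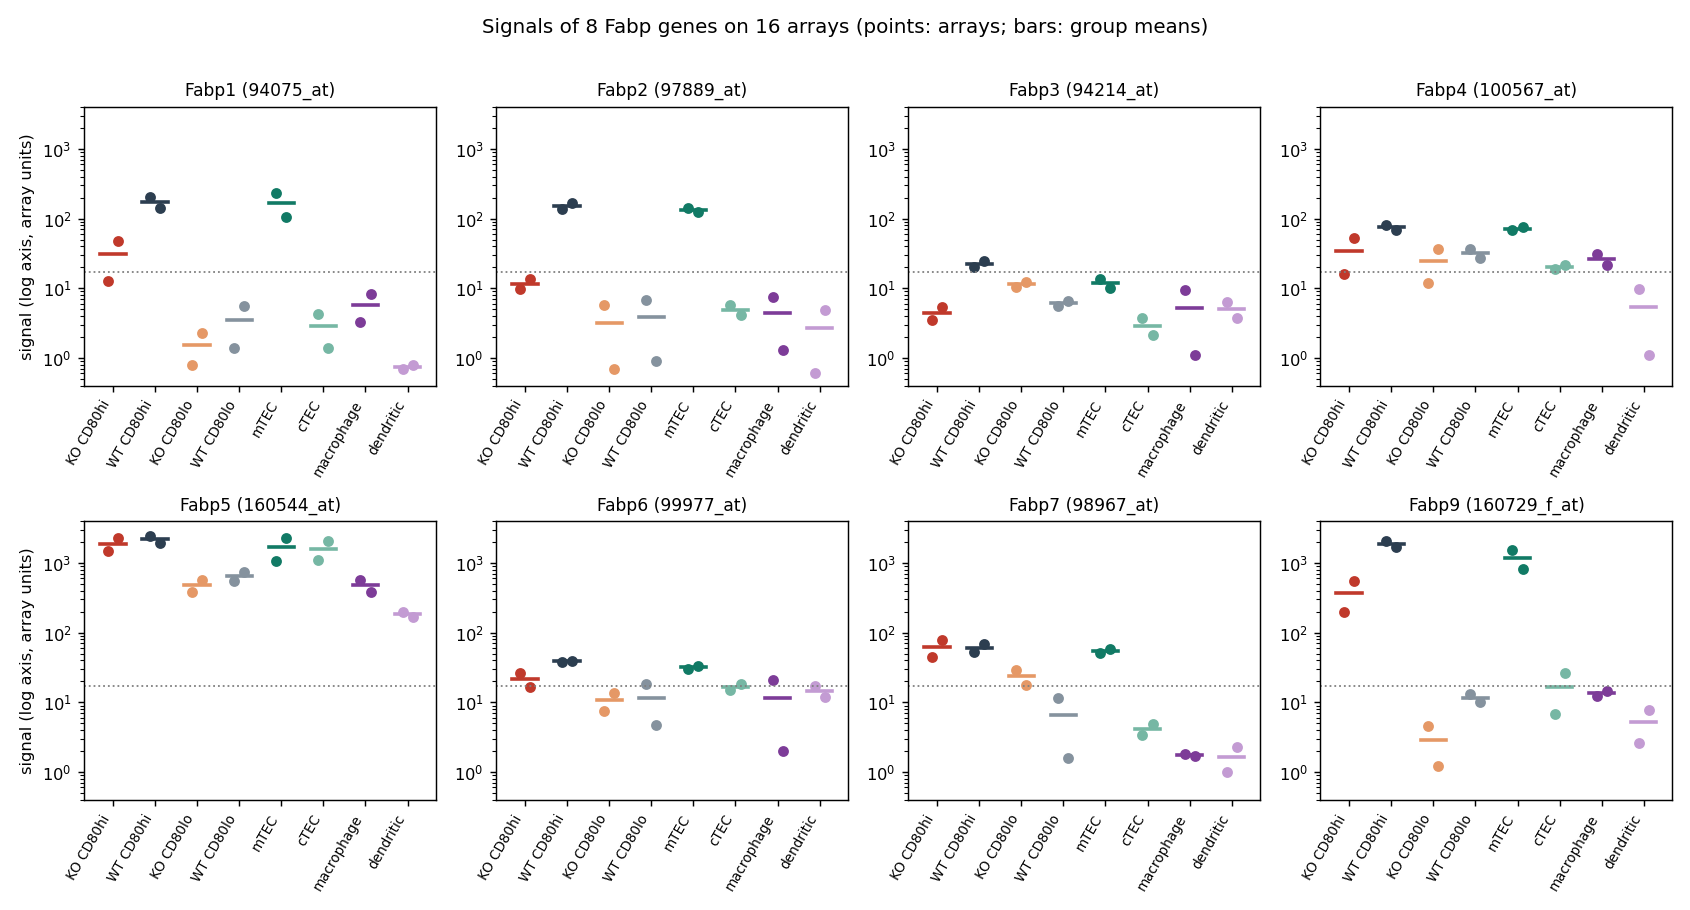
Signals of the brightest probe set of each of the 8 Fabp genes (log axis, array units) in the 8 groups, with a point for each array, a bar for the group mean and a dotted line at 17.3, the filter value. Fabp1, Fabp2 and Fabp9 are bright in WT CD80hi and unfractionated mTEC and lower in KO CD80hi mTEC, while Fabp5 lies above the line on all 16 arrays.

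The first comparison among the CD80-sorted cells asked which signals go with the mature CD80hi stage in wild-type mice. All 9 probe sets that passed the filter had a positive difference, WT CD80hi minus WT CD80lo, and 6 of them were called higher, for Fabp1, Fabp2, Fabp5, Fabp7 and both probe sets of Fabp9. The background, the share of all 9319 probe sets tested that was called, was 12.7%, 744 higher and 442 lower in CD80hi, and the median difference of all of them was -0.04. This contrast was among the values that chose the family, so nothing is read from the count. The largest Fabp difference was 6.83 ± 0.53 (SE) for Fabp9 on 160729_f_at, with 4.61 ± 0.50 on 94927_at. Fabp1 differed by 4.46 ± 0.53, Fabp2 by 4.25 ± 0.48, Fabp7 by 2.67 ± 0.44 and Fabp5 by 1.76 ± 0.43. The 3 not called were Fabp6 at 1.56 ± 0.55, Fabp3 at 1.32 ± 0.42 and Fabp4 at 1.12 ± 0.54. The Fabp5 call was lost without WT CD80hi array 1 (1.60), WT CD80hi array 2 (1.92) or WT CD80lo array 1 (1.54).

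In knockout mice 4 probe sets were called higher in CD80hi than in CD80lo mTEC, and the background was 12.8%, with 553 higher and 640 lower and a median of -0.03. Fabp9 differed by 5.50 ± 0.53 on 160729_f_at and by 2.13 ± 0.50 on 94927_at, Fabp1 by 2.27 ± 0.53 and Fabp5 by 1.96 ± 0.43. Fabp2, called in wild type, had 1.10 ± 0.48, and Fabp7 had 1.22 ± 0.44. Fabp3 was the only member with a negative difference, -0.83 ± 0.42, from signals of at most 12.5, under the filter value. Without KO CD80hi array 2 the calls of Fabp1 (1.47), Fabp5 (1.64) and Fabp9 on 94927_at (1.35) were lost, and without KO CD80lo array 1 those of Fabp1 (2.10) and Fabp5 (1.69). The 94927_at call was also lost without KO CD80lo array 2 (1.77), and that of Fabp5 without array 1 of both knockout groups (2.01).

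**Figure D2:**
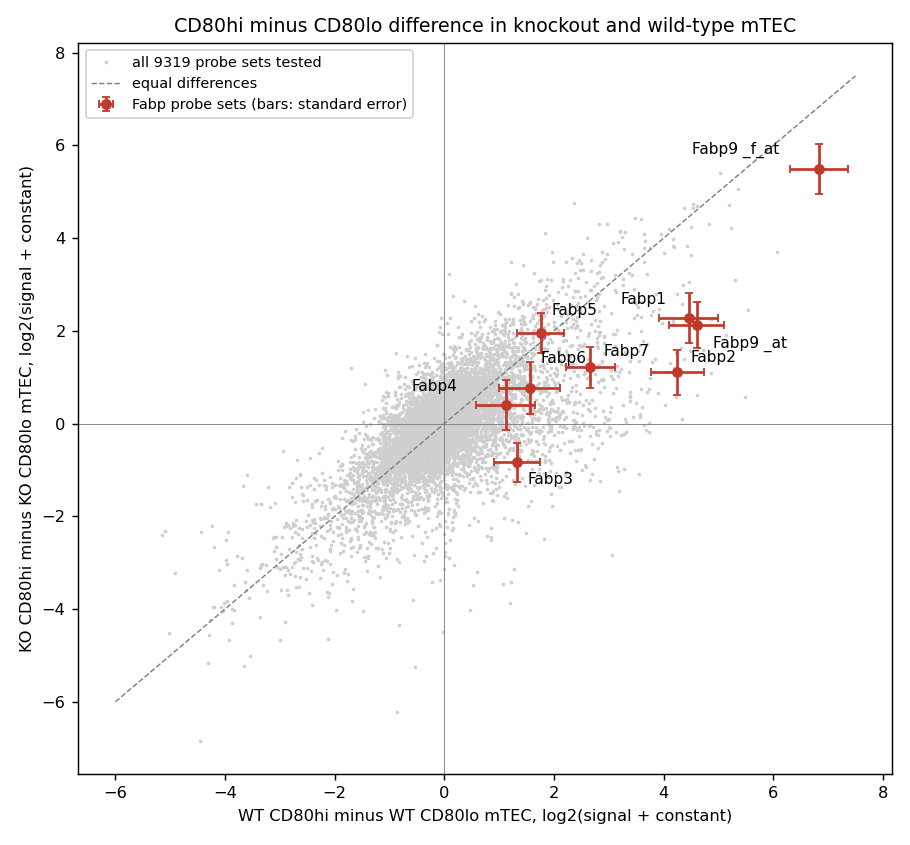
Difference between CD80hi and CD80lo mTEC in knockout mice (vertical axis) against that in wild-type mice (horizontal axis), both as log2(signal + 4.8), for all 9319 probe sets tested (grey) and the 9 Fabp probe sets (red, bars give the SE), with a dashed line where the differences are equal. Fabp5 lies at 1.96 and 1.76, near that line, and Fabp2 at 1.10 and 4.25, far below it.

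The second comparison asked which of these signals differ when Aire is missing. In CD80hi mTEC, 3 Fabp probe sets were called lower in KO than in WT and none higher, and the background was 3.05%, with 16 probe sets higher, 268 lower and a median of -0.05. Fabp2 differed by -3.25 ± 0.48, with a 95% interval of -4.29 to -2.22. Fabp1 differed by -2.52 ± 0.53, with an interval of -3.67 to -1.38, and Fabp9 on 160729_f_at by -2.47 ± 0.53. The other Fabp9 probe set had -1.90 ± 0.50 and was not called. The groups did not overlap for Fabp3 at -1.57 ± 0.42, Fabp4 at -1.19 ± 0.54 and Fabp6 at -0.75 ± 0.55 either, which were not called. Fabp3 had passed the filter only through WT CD80hi mTEC. With 2 arrays in a group, separate groups easily arise without a true difference. Their share over all probe sets was not counted, so nothing is read from the lack of overlap.

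For Fabp5 and Fabp7 the CD80hi arrays overlapped between the genotypes. Their differences, KO minus WT, were -0.24 ± 0.43 and -0.02 ± 0.44. The 95% intervals, -1.16 to 0.68 for Fabp5 and -0.97 to 0.94 for Fabp7, still hold changes of nearly 1 log2 unit. The genotype calls of Fabp1 and of Fabp9 on 160729_f_at depended on single arrays. Without KO CD80hi array 1, WT CD80hi array 1 or WT CD80hi array 2, the calls of Fabp1 (-1.72, -2.26 and -2.79) and of Fabp9 on 160729_f_at (-1.74, -2.34 and -2.60) were lost. Without array 1 of both knockout groups, Fabp1 (-1.72) and Fabp9 (-1.74) were again not called, while Fabp2 was. Without KO CD80hi array 2 the second Fabp9 probe set became a call (-2.68). With a constant of 1 in place of 4.8 none of the 3 passed, at -3.60 for Fabp2, -2.72 for Fabp1 and -2.48 for Fabp9.

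In CD80lo mTEC no Fabp probe set was called between KO and WT by limma, and the background was 0.322%, 26 probe sets higher and 4 lower with a median of -0.05, where 517 probe sets had an unadjusted p under 0.05. The largest Fabp difference was that of Fabp7, 1.44 ± 0.44, from 29.6 and 17.5 in KO against 11.6 and 1.6 in WT. These WT signals lay under 17.3, and nothing is read from the lack of overlap, whose share over all probe sets was not counted. Fabp3 had 0.59 ± 0.42 and Fabp5 -0.44 ± 0.43. The 2 probe sets of Fabp9 had opposite signs, -1.13 ± 0.53 and 0.57 ± 0.50, at signals of at most 13.2, under the filter value.

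The difference between the genotype effects in CD80hi and CD80lo mTEC was called for 1 Fabp probe set, that of Fabp2, at -3.15 ± 0.68, and the background was 1.30%, all 121 of them lower, with a median of 0.01. Fabp9 on 94927_at had -2.47 ± 0.71, Fabp1 -2.18 ± 0.75, Fabp3 -2.16 ± 0.60 and Fabp7 -1.45 ± 0.63. Fabp9 on 160729_f_at had -1.34 ± 0.76, Fabp6 -0.79 ± 0.78 and Fabp4 -0.71 ± 0.76. Fabp5 alone was positive, at 0.20 ± 0.61. In CD80lo mTEC of both genotypes Fabp1, Fabp2, Fabp3 and Fabp9 lay under 17.3. A decrease in the knockout could hardly show there, so for these genes the value does not tell whether the effect depends on the stage. The Fabp2 call was lost without 6 of the 8 arrays, each left out in turn, with values of -2.63 without WT CD80lo array 2 to -3.32 without KO CD80hi array 2, and between these for KO CD80hi array 1, KO CD80lo array 1 and both WT CD80hi arrays. It was also lost without array 1 of both knockout groups (-2.51) and with a constant of 1 (-3.40). Without KO CD80hi array 2, Fabp9 on 94927_at became a call (-3.25).

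**Figure D3:**
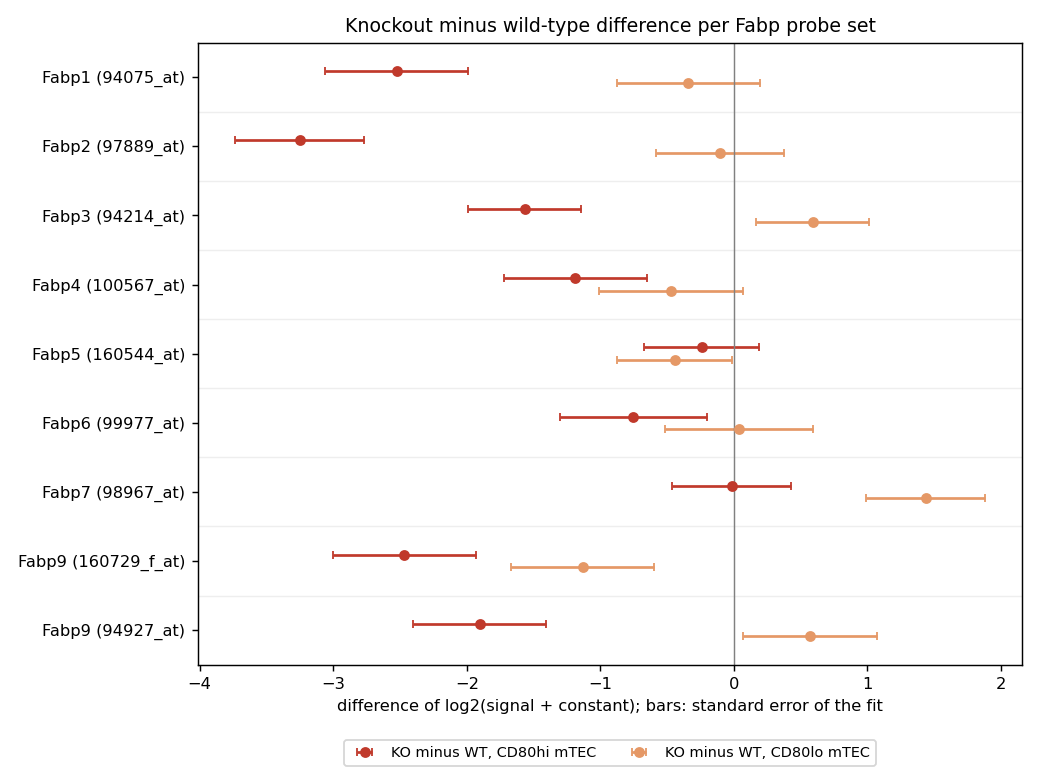
Knockout minus wild-type difference of log2(signal + 4.8) for the 9 Fabp probe sets in CD80hi mTEC (dark red) and CD80lo mTEC (orange), with bars for the SE. In CD80hi mTEC Fabp2 stands lowest at -3.25 and Fabp7 at -0.02, and in CD80lo mTEC the values lie between -1.13 and 1.44.

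Among the unfractionated wild-type groups, mTEC were set against cTEC, macrophages and dendritic cells, to see which cells of the thymic stroma and its antigen-presenting cells hold each transcript. In these groups the arrays numbered 1 and those numbered 2 deviated together, and their highest signals were 2518 to 3524 and 4788 to 5630. The numbers were therefore taken as pairs in an alternative fit with the array number as a block. The calls and errors given here are those of the fit without pairs, unless the block is named. With the block, 2000 probe sets were called against cTEC, 2697 against macrophages and 3012 against dendritic cells. Fabp1, Fabp2, Fabp7 and both Fabp9 probe sets were called higher in mTEC than in each of the 3 other cell types, with differences of 2.73 to 6.88. Against cTEC 5 probe sets were called and the background was 15.4%, 1038 higher and 396 lower with a median of -0.03. Against macrophages 6 were called and the background was 22.0%, 1361 higher and 687 lower with a median of 0.01. Against dendritic cells 7 were called and the background was 24.3%, 1562 higher and 706 lower with a median of 0.10. Quantile normalisation moved these medians to -0.15, -0.13 and -0.16, and the share of calls higher in mTEC against dendritic cells to 57.6% (1242 higher, 914 lower), against 68.9% in the values as deposited, while the signs of the called Fabp differences held.

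Fabp5 set cTEC apart from the other comparisons. mTEC minus cTEC was 0.03 ± 0.43 for Fabp5, with a 95% interval of -0.89 to 0.95, and it was -0.06 within the arrays numbered 1 and 0.13 within those numbered 2. With quantile normalisation it was -0.01. Against macrophages the Fabp5 difference was 1.72 ± 0.43, with 0.87 and 2.56 within the numbers, and the call was lost without macrophage array 2 (1.43) or mTEC array 2 (1.16). Against dendritic cells it was 3.04 ± 0.43.

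Fabp4 was higher in mTEC than in dendritic cells by 3.05 ± 0.54, a call. Against cTEC it had 1.62 ± 0.54, with 1.64 and 1.61 within the numbers, which was not called in the fit without pairs and was called with the array number as a block. Against macrophages it had 1.31 ± 0.54 and was not called. Fabp6 and Fabp3 were not called against any of the 3 cell types, with Fabp6 between 0.77 and 1.47 and Fabp3 between 0.77 and 1.11. Without macrophage array 1, however, both were called against macrophages, at 2.43 for Fabp6 and 1.49 for Fabp3.

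Between macrophages and dendritic cells no Fabp probe set was called by limma, and the background was 9.25%, 524 higher and 338 lower with a median of 0.08, while 1887 probe sets had an unadjusted p under 0.05. Fabp4 had 1.74 ± 0.54 and Fabp5 1.33 ± 0.43, both with macrophage arrays above dendritic cell arrays, from which nothing is read. With the array number as a block both became calls, Fabp4 at 1.74 and Fabp5 at 1.33, and 1382 probe sets were called in place of 862. Fabp4 was also called without dendritic cell array 1 (2.39) and with a constant of 1 (2.52).

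**Figure D4:**
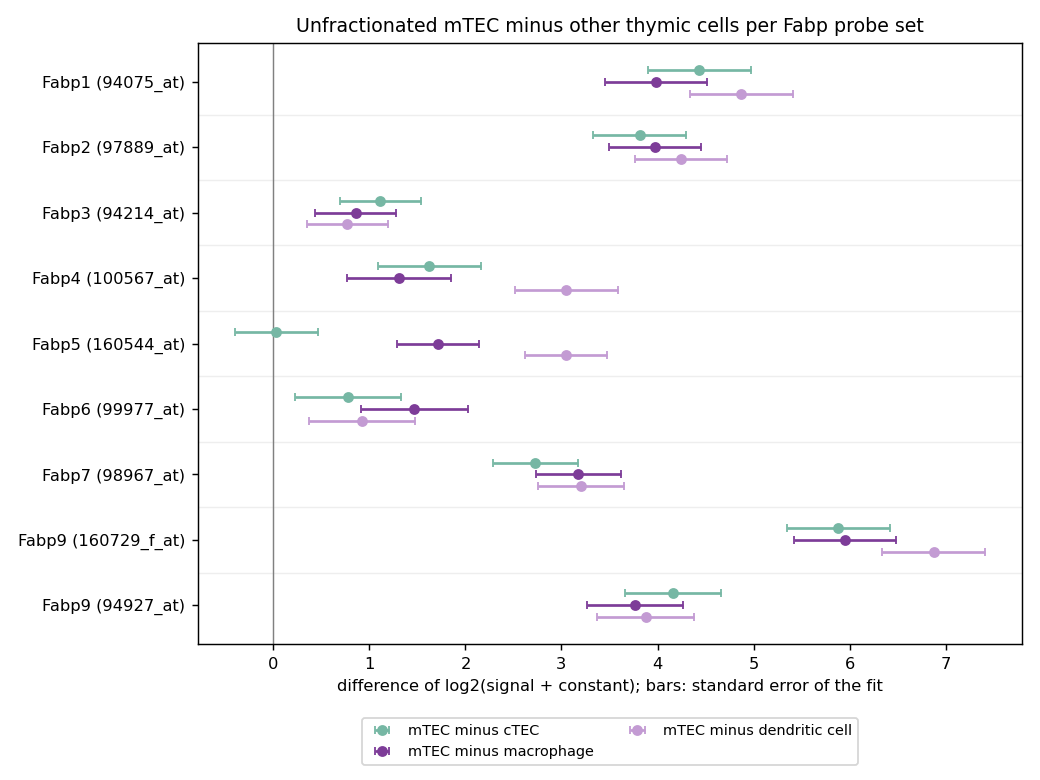
Difference of log2(signal + 4.8) between unfractionated mTEC and cTEC (green), macrophages (dark purple) and dendritic cells (light purple) for the 9 Fabp probe sets, with bars for the SE. Fabp9 on 160729_f_at has the largest differences, 5.88, 5.95 and 6.88, and Fabp5 lies at 0.03 against cTEC but at 1.72 and 3.04 against the other cells.

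Markers of the cells that use Fabp4 elsewhere were read beside these values. Of 12 macrophage markers, 6 exceeded the filter value on both arrays in KO CD80hi mTEC and 8 in WT CD80hi mTEC, and their summed signal was 785 to 996 in KO and 1354 to 1658 in WT, against 11780.5 to 19988 in macrophages. In CD80lo mTEC the sum was 821 to 1258 in KO and 614.5 to 699 in WT, and Mertk stayed at or under the filter value in all mTEC groups. Of 7 fat cell markers, 3 exceeded it in KO CD80hi mTEC and 4 in WT CD80hi mTEC, with sums of 146 to 338 and 313 to 325, and Retn and Cidec were at or under it in every group. Of 7 endothelial markers, 2 exceeded it in KO CD80hi and 3 in WT CD80hi mTEC, with sums of 219 to 234 and 187 to 198.5, and Cdh5, Kdr and Tie1 were at or under it in both. Of the same markers, 2 exceeded it in KO CD80lo and 5 in WT CD80lo mTEC, with sums of 146.6 to 474.6 and 353 to 589.2. The part of endothelial cells in the Fabp4 signals was not tested. Thymocyte markers summed to 186.5 to 200.1 in unfractionated mTEC, against 2680 to 4616 in cTEC, 1674 to 4937 in macrophages and 1966 to 2227 in dendritic cells. In CD80hi mTEC they summed to 196.9 to 371.7 in KO and 152 to 306.4 in WT. In CD80lo mTEC these sums were 245.5 to 408.8 in KO and 153.5 to 656 in WT. The macrophage sum was thus lower in KO than in WT CD80hi mTEC, as Fabp4 was, and higher in KO than in WT CD80lo mTEC, where the Fabp4 arrays overlapped. It was lower in all mTEC groups than in macrophages, where Fabp4 gave less than in WT CD80hi mTEC, and its part in the Fabp4 difference was not tested. In mTEC most of the macrophage sum came from Cd14 and Lyz2, with 627.5 and 593 of the 1658 on WT CD80hi array 1. Not every marker followed the sum, and Cd68 gave 132.2 and 90.8 in KO against 73.3 and 68.7 in WT CD80hi mTEC.

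The genes most like each Fabp gene over the 16 arrays, by Pearson r of the log2 values, were named as the nearest 3. These r describe points that share groups and arrays and carry no test. For Fabp1 they were H2-Q10 (0.97), a class I gene known from liver, Apoa1 (0.96), the main protein of high-density lipoprotein, and Rgn (0.96), a calcium-binding liver protein. For Fabp2 they were the kallikrein Klk1b9 (0.98), Ins2 (0.97), which encodes insulin, and Mucl2 (0.97). The probe sets of Klk1b9 and Ins2, like those of Actc1, Myh7, Serpina1b and Krt84 named elsewhere, hold probes shared with similar sequences. Those of H2-Q10, and of Gap43, Serpinb2, Pparg and Cd68 named elsewhere, carry the suffix _s_at, which also marks probes shared between transcripts. The nearest to Fabp9 were Clrn3 (0.98), Coch (0.98), a protein of the inner ear, and Apoa1 (0.97). The r among these 3 Fabp genes was 0.96 between Fabp1 and Fabp9, 0.93 between Fabp1 and Fabp2 and 0.92 between Fabp2 and Fabp9.

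Fabp7 was most like Tnfrsf11b (0.98), the decoy receptor of RANK ligand, Serpinb2 (0.96) and Tfap2c (0.95), a transcription factor of ectoderm. Tnfrsf11b gave 319.6 and 643 in KO CD80hi mTEC and 274 and 462 in WT CD80hi mTEC, so it too overlapped between the genotypes. Fabp5 was most like Me1 (0.94), malic enzyme, which makes the NADPH used in fatty acid synthesis, Ces2g (0.93), a carboxylesterase, and Gipc2 (0.93). Me1 gave 653 and 599 in mTEC, against 425 and 342 in cTEC, 90.3 and 13.1 in macrophages and 7.9 and 8.3 in dendritic cells. Fabp4 was most like Serpina1b (0.90), Krt84 (0.88) and Lgals2 (0.88), Fabp6 like Nmb (0.90), Ghrl (0.88) and Krt71 (0.87), and Fabp3 like Lcn4 (0.92), Gap43 (0.86) and Magel2 (0.86). The lowest r between members was that of Fabp3 and Fabp5, 0.30.

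Fabp5, Fabp9 and Fabp4 are neighbours on mouse chromosome 3 in the RefSeq annotation, with Pmp2 between Fabp5 and Fabp9 and Fabp12 after Fabp4, of which neither was measured here. Over the 16 arrays, which share the groups, r was 0.76 between Fabp5 and Fabp9, 0.75 between Fabp4 and Fabp5 and 0.73 between Fabp4 and Fabp9. The KO CD80hi mean of Fabp9 on 160729_f_at was 376, against 1871 in WT CD80hi mTEC. For Fabp4 these means were 34.6 in KO and 74.8 in WT, and for Fabp5 1892 in KO and 2197 in WT. In mTEC the mean of Fabp9 was 1180.3, against 16.8 in cTEC, while that of Fabp5 was 1675 in mTEC and 1603 in cTEC. Impa1, the nearest measured gene beyond Fabp12, gave 73.1 and 259.8 in KO CD80hi mTEC and 179 and 205.5 in WT CD80hi mTEC, which overlapped, and so did its CD80lo arrays. Pag1, on the other side, gave 48.6 and 69.6 in KO CD80hi and 52.4 and 112 in WT CD80hi mTEC.

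The cellular retinoic acid-binding proteins belong to the same superfamily of lipid carriers, and Crabp1 and Crabp2 were the measured relatives that passed the filter. Both were called lower in KO than in WT CD80hi mTEC. Crabp1 gave 1.7 and 3.1 in KO CD80hi mTEC against 39.4 and 31.4 in WT CD80hi mTEC, a difference of -2.48 ± 0.45 with an adjusted p of 0.00621 by limma. Crabp2 gave 12.9 and 17.6 in KO against 58.2 and 43.6 in WT, a difference of -1.47 ± 0.36 (adjusted p = 0.0411 by limma). In KO CD80lo mTEC Crabp2 gave 63.1 and 41.3, above its own KO CD80hi arrays, and the CD80hi minus CD80lo difference in the knockout was -1.49 ± 0.36 (adjusted p = 0.0138), not called without KO CD80hi array 1 (-1.32) or KO CD80lo array 1 (-1.21). The Crabp1 call was lost without KO CD80hi array 1 (-2.34), WT CD80hi array 1 (-2.34) or WT CD80hi array 2 (-2.63), and the Crabp2 call without any 1 of the 4 CD80hi arrays (-1.28 to -1.66). Rbp2, the retinol carrier of the enterocyte, did not pass the filter.

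The pathway around the carriers was read from lists, whose genes can stand in more than 1 list and were chosen with earlier results known. Lists were not tested against each other. Between WT CD80hi and WT CD80lo mTEC, where the background was 12.7%, the calls in fatty acid handling went both ways. Of 11 tested genes of fatty acid uptake and activation 2 rose and 1 fell, of 17 of fatty acid oxidation 1 rose and 1 fell, and of 16 of synthesis and storage 1 rose and 1 fell, with list medians of -0.45, 0.16 and 0.08. None of 11 PPAR and RXR receptor and coactivator genes was called, with a median of 0.04. Of 15 PPAR target genes outside the family 2 rose and 1 fell, with a median of 0.53. Me1 rose by 2.67 ± 0.56 (adjusted p = 0.00523), and Pck1, the entry enzyme of gluconeogenesis, by 2.35 ± 0.37 (adjusted p = 0.000658). Acaa2, the last thiolase of mitochondrial oxidation, fell by 2.32 on the log2 scale with an SE of 0.39 (adjusted p = 0.00108).

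In KO against WT CD80hi mTEC none of the 11 uptake, 11 receptor, 15 target, 17 oxidation and 16 synthesis genes tested was called by limma, with list medians between -0.35 and -0.04. Among lists of the tissues the carriers are known from, some had calls and others none. The background in this comparison was 3.05%, with 16 probe sets higher and 268 lower in KO. Of 11 tested hepatocyte genes 6 fell, with a median of -1.73. They include the fibrinogen genes Fgb and Fga, which passed the filter only with the WT CD80hi arrays, so that their lower KO signals are not independent of it. Alb, serum albumin, gave 12.5 and 17.4 in KO against 82.6 and 84.8 in WT CD80hi mTEC, a difference of -2.17 ± 0.37 (adjusted p = 0.00477), not called without KO CD80hi array 1 (-2.0) or either WT CD80hi array (-2.19 and -2.16). Of 15 genes of intestinal lipid absorption 2 fell, with a median of -0.86. They were Apoa1, at -2.87 ± 0.38 (adjusted p = 0.000999), and Slc5a1, the glucose transporter of the brush border, at -2.10 ± 0.40 (adjusted p = 0.00823), whose call was lost without KO CD80hi array 1 (-2.02) or either WT CD80hi array (-1.89 and -2.31).

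Of 8 tested testis genes 2 fell, with a median of -0.30, of which Prm1, a sperm protamine, likewise passed the filter only with the WT CD80hi arrays. Ldhc, the lactate dehydrogenase of sperm, gave 0.4 and 2.1 in KO CD80hi and 19.1 and 28.7 in WT CD80hi mTEC, a difference of -2.24 ± 0.37 (adjusted p = 0.00394) that was not called without WT CD80hi array 2 (-2.0). Of 13 heart and muscle genes 4 fell and 1 rose, with Actc1, cardiac actin, at -1.84 ± 0.29 (adjusted p = 0.00257), also not called without WT CD80hi array 2 (-1.71). The gene that rose was Myh7, slow myosin, with 394.5 and 242 in KO against 79.7 and 124 in WT CD80hi mTEC, 1.59 ± 0.37 (adjusted p = 0.0321), not called without KO CD80hi array 1 (1.24) or either WT CD80hi array (1.28 and 1.89). Of 9 epidermal genes 1 fell, S100a9, at -3.62 ± 0.46 (adjusted p = 0.000729). None of 7 bile acid, 9 fat cell and 7 astroglial genes was called, with medians of -0.46, -0.05 and 0.14. Adipoq, the hormone of fat cells, gave 36.3 and 30.9 in KO CD80hi against 82.0 and 101 in WT CD80hi mTEC and was not called between the genotypes.

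The same tissue lists were read between the CD80 stages in wild type, where the background was 12.7%, 744 higher and 442 lower in CD80hi. Of the tested genes 7 of 15 rose in intestinal lipid absorption, 7 of 11 in hepatocyte, 8 of 13 in heart and muscle, 6 of 9 in epidermis, 3 of 9 in fat cell, 2 of 8 in testis, 2 of 7 in bile acid and 1 of 7 in astroglial genes, and none fell. Their medians ran from -0.05 in the astroglial list to 2.04 in the epidermal list. Fgb, Fga and Prm1 passed the filter only with the WT CD80hi arrays, so their higher signals there are not independent of it. Apoa1 rose by 5.54 ± 0.38 (adjusted p = 3.35e-06), Tdo2, a tryptophan-degrading enzyme of liver, by 4.33 ± 0.46 (adjusted p = 3.31e-05), and Myl7, an atrial myosin light chain, by 4.12 ± 0.53 (adjusted p = 0.000142).

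Between macrophages and dendritic cells, where the background was 9.25%, 3 of 11 receptor and coactivator genes were higher in macrophages and none lower, with a list median of 0.76. They were Pparg, Nr1h3 and Cebpb, a transcription factor that is no receptor, while Ppara had 0.76 ± 0.56 and Rxra 0.13 ± 0.31 and neither was called. Pparg, the PPAR of fat cells and macrophages, gave 47.3 and 112 in macrophages against 6.1 and 3.2 in dendritic cells, a difference of 3.06 ± 0.53 (adjusted p = 0.00161). Nr1h3, a sterol receptor that pairs with RXR, gave 458 and 639.5 against 50.3 and 47.4, a difference of 3.35 ± 0.32 (adjusted p = 1.68e-05). Lpl, which frees fatty acids from lipoproteins, gave 233 and 1272 in macrophages against 11.1 and 38.9 in dendritic cells, with 4.39 ± 0.73 (adjusted p = 0.00129). In mTEC Pparg was dim, at 1.1 and 8.6, and mTEC minus macrophage was -3.14 ± 0.53 (adjusted p = 0.000544). Pparg passed the filter only with the macrophage arrays. Its higher macrophage signals, their adjusted p and its place among the 3 called genes are therefore not independent of the filter.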

How the data were processed

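Affymetrix mouse arrays measured RNA of 16 samples of sorted cells of the thymus, per the labels. The values deposited by the authors are 1 intensity per probe set and array, on a linear scale, and every array had a 2% trimmed mean of 100.1, so the values were already scaled between arrays. The sources used here do not name the software that made them. The number of arrays limits the precision. Of 12488 probe sets, 66 controls and 3103 that did not exceed 17.3 (the 40th percentile of all values) on at least 2 arrays were left out, and 4.8 (the 20th percentile) was added before log2. The annotation gave 1 gene for 10833 probe sets, several for 396 and none for 1193. For 10817 of the first the symbol was taken from RefSeq's gene list of GRCm38.p6, and 16 kept that of the annotation.

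The 9319 others were fitted with limma 3.58.1 (R 4.3.3, and data.table, version 1.17.8) over all 16 arrays in 8 groups, and moderated by eBayes using a mean-variance trend, which added 5.98 degrees of freedom to the 8 of the residuals. Every test was 2-sided and adjusted by Benjamini-Hochberg over all probe sets tested, with a threshold of 0.05. The script was tested on simulated data. The family and the lists were chosen with earlier results of these data known. Named genes were all Fabp probe sets, of each list up to 3 genes with the smallest adjusted p past the threshold, the 3 genes most like each Fabp gene, measured relatives of the family and measured neighbours. A list gene was read from its brightest probe set. Genes singled out beside them (Adipoq between the genotypes, Pparg and Me1 across groups) were chosen after their values were seen.

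No 2 arrays of a group held identical values, and replicates correlated across probe sets at 0.90 to 0.97. The sample numbers of the labels were checked for pairs. Deviations from the group mean of same-numbered unfractionated arrays correlated at 0.28 to 0.53 in all 6 pairs of groups, so these numbers were taken as pairs from the data. Those of the CD80-sorted arrays correlated at 0.03 to 0.52, and these were not. The 0.52 was that of KO CD80hi with KO CD80lo, within the unfractionated range, and the others were at most 0.17. The reported fit has no block and so ignores both kinds of pairing. Alternatives were quantile normalisation, constants of 1 and 17.3, no filter and a filter at 50, eBayes without a trend, a block for the number, and the omission of each array in turn. Leaving out array 1 of both knockout groups together was chosen after seeing the data, as were the alternatives for list genes.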

Additional observations from a re-analysis of the deposited data

Results flagged for a closer look

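A difference between the knockout effects in CD80hi and CD80lo mTEC was called for 11 named list genes, by a test of the difference itself over all 9319 probe sets. Fabp2 is given beside them as a description. The list genes were named by calls in comparisons of the same CD80-sorted arrays, so their adjusted p are not independent of that choice. The value given is the log2 difference KO minus WT in CD80hi mTEC minus that in CD80lo mTEC. Fabp2 had -3.15, from -3.25 in CD80hi and -0.10 in CD80lo mTEC, with no p and no test read from it because the family was chosen by its signals. In the list genes the adjusted p is that of limma. Crabp1 had -3.03 (0.0366), Crabp2 -2.32 (0.0444), Apoa1 -3.08 (0.0122), Ldhc -2.45 (0.0403) and S100a9 -3.79 (0.0109), with a difference of at most 0.85 in CD80lo mTEC. The CD80lo signals of Fabp2, Crabp1, Apoa1 and Ldhc lay under 17.3 in both genotypes. A decrease in the knockout could hardly show there, so for these genes the value does not tell whether the effect depends on the stage. Rbp4, the plasma retinol carrier, had -3.29 (0.00766), Actc1 -3.12 (0.00255), Cyp8b1, an enzyme of bile acid synthesis, -3.74 (0.0132) and Sox2, a neural and epithelial transcription factor, -3.19 (0.0138). Acta1, skeletal muscle actin, had -5.35 (0.000103), with -1.80 in CD80hi and 3.55 in CD80lo mTEC, and Krt6a, an epidermal keratin, had -3.22 (0.00777), with -0.33 and 2.90. Acta1 and Actc1 kept the call when each of the 8 CD80-sorted arrays was left out in turn, with -5.57 to -5.13 and -3.31 to -2.94. The call was lost without 1 array for Rbp4, 2 for Krt6a, 4 each for Apoa1, S100a9 and Sox2, 5 for Cyp8b1, 6 for Fabp2, 7 each for Crabp1 and Crabp2 and 8 for Ldhc, with values of -4.30 to -2.04 over these genes. For Fabp2 it was also lost without array 1 of both knockout groups (-2.51) and with a constant of 1 (-3.40).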

How the results depend on the processing

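Of 936 values of Fabp probe sets under the alternatives, 364 belonged to calls, of which 333 stayed calls and none changed sign, and 24 of the 572 others became calls. Of 2348 values of named list genes, 2064 kept the call and none changed sign. With a constant of 1 the probe sets called numbered 44 in the interaction (121 in the reported fit), 180 in KO against WT CD80hi (284) and 18 in KO against WT CD80lo mTEC (30), and with the constant of 17.3 they numbered 216 in the interaction and 47 in KO against WT CD80lo. With the replicate block the counts were 1880 in KO CD80hi against KO CD80lo (1193), 63 in KO against WT CD80lo and 1382 in macrophages against dendritic cells (862), and 179 in the interaction. The block made calls of Fabp3 in WT CD80hi against CD80lo (1.32) and in KO against WT CD80hi (-1.57), and of Fabp9 on 94927_at in the second (-1.90), and beside the unfractionated Fabp4 and Fabp5 calls given above it changed no other Fabp call. Fabp3 was called in both also without a filter, without a trend and with the constant of 17.3 (0.77 and -0.87), which likewise made calls of Fabp6 in WT CD80hi against CD80lo (1.0), Fabp7 in KO CD80hi against CD80lo (0.93), Fabp9 on 94927_at in KO against WT CD80hi (-1.54) and in the interaction (-1.75), and Fabp4 in mTEC against cTEC (1.25). Without array 1 of both knockout groups, 42 probe sets were called in the interaction, 523 in KO CD80hi against CD80lo and 151 in KO against WT CD80hi. With each array left out in turn, the counts were 34 to 99 in the interaction, 744 to 900 in KO CD80hi against CD80lo, 81 to 220 in KO against WT CD80hi, 8 to 25 in KO against WT CD80lo, 626 to 681 in WT CD80hi against CD80lo, 860 to 946 in mTEC against cTEC, 1408 to 1875 in mTEC against macrophages, 1554 to 1893 in mTEC against dendritic cells and 566 to 786 in macrophages against dendritic cells, where fewer arrays raise each error. Other causes were not tested. Signals at or under 17.3 set no order among the dim groups.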
